A study of Homo sapiens with 4 samples.

Results

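The genes analysed were those of the DNA replication machinery, from the origin recognition complex to the ligase that joins new strands. They were 40 listed genes, chosen by name, and a gene was measured through the probes whose RefSeq accession maps to its symbol. At least 1 named probe was found for 39 of them, out of 25006 named genes on the array. No probe was named as MCM3, and the expression of MCM3 was not analysed here. The 39 genes had 52 probes of the 34892 named ones, and each gene was represented by its probe with the highest mean signal. All 39 were well above background on all 4 arrays, so that none was left out for a low signal.

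The cells were HML58-3, a derivative of the human colon cancer line HCT116 that carries a luciferase gene driven by a marker promoter that is methylated. They received mock treatment, decitabine (DAC) or one of its prodrugs OR-2003 and OR-2100, each drug at 1 μM. DAC is a cytidine analogue that is built into DNA during replication and traps the maintenance DNA methyltransferase there. The medium with the drug, dissolved in DMSO, was given on day 1, and RNA was taken on day 5. What the mock medium contained is not given in the sources used here. Each condition was measured on 1 one-colour array, and the 4 arrays lay on 1 slide, so that a difference between conditions has no replicate and no p-value is given. The 3 drug arrays are all compared with the same mock array, and an odd value on that array enters all 3 comparisons.

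Copying the genome starts at origins, where the origin recognition complex, CDC6 and CDT1 load the MCM2-7 helicase on DNA before S phase. At the start of S phase CDC45 and the GINS complex join MCM2-7 to form the active helicase, and DNA polymerases alpha, delta and epsilon then copy the opened strands, held by the PCNA clamp and its RFC loader. Many of these genes are textbook targets of the E2F transcription factors, which switch them on as cells leave G1.

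The colon epithelial label of the cells was checked first. Of 10 colon epithelial markers, 7 were positive on every array, with a level of -1 or more, namely EPCAM, KRT8, KRT18, KRT19, CDH1, CDX1 and CDX2. CEACAM5 was not well above background on any array, and VIL1 was at a level of -6.38 on the mock array. Of 14 measured markers of leukocytes, fibroblasts, endothelium and hepatocytes, COL1A1 alone was positive on the mock array, and CD14 and VWF were also positive with the drugs. The log2 summed level of these other markers was 1.91 with mock and 2.94 to 2.99 with the drugs, and that of the epithelial markers lay between 10.35 and 10.72. EPCAM was at 6.81 with mock and 5.29 to 5.36 with the drugs, CDH1 at 3.88 and 2.63 to 2.79, and LGALS4 at -3.20 and -0.95 to -0.59. The part of these shifts in the results below was not tested.

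The promoters of the genes show one thing that the choice by name did not use. Windows from 250 bases before to 50 bases after the gene start from RefSeq (build GRCh38.p14) were used for 34 of the 40 genes, and those of the others were not analysed here. The words bound by E2F, TTTCCCGC, TTTCGCGC, TTTGCCGC and TTTGGCGC, were searched on both strands. At least 1 of them was found in any window of 17 of the 34 genes (50%), against 3.99% of all 27305 genes with such a window and 6.72% of the 8965 whose level was positive (-1 or more, as defined below) on every array. The 17 genes were ORC3, CDC6, CDT1, MCM2, MCM3, MCM6, MCM7, GINS1, GINS2, GINS3, POLA1, POLA2, POLE, POLE2, PCNA, RFC3 and LIG1. Of their 23 matches, 17 began within 100 bases of the gene start. The CCAAT box, searched as CCAAT, was found in 20 of the 34 genes (58.8%) against 39.7% of all genes and 43.2% of the 8965. The CHR element of genes that peak in G2 and M phase was searched as TTTGAA and TTCGAA. It was found in 1 of the 34 genes (2.94%) against 19.5% of all genes and 14.9% of the 8965. A match is a description of the letters and not of binding, and no match says nothing about binding either.

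The promoters below belong to genes that the results turn on, and are printed 5′ to 3′ on the strand of the gene with the E2F words in capitals. POLA1 (chrX:24693668-24693967, + strand), the gene with the lowest values against mock, and POLA2 (chr11:65261712-65262011, + strand), its partner subunit with higher values, each hold 1 word. PCNA (chr20:5126573-5126872, - strand), which was higher than mock, holds 1 word beginning 59 bases before its start. MCM2 (chr3:127598161-127598460, + strand) holds 2 overlapping words, 1 on each strand, and RFC5 (chr12:118016453-118016752, + strand), the gene next to POLA1 in the size of its difference, holds none.
POLA1: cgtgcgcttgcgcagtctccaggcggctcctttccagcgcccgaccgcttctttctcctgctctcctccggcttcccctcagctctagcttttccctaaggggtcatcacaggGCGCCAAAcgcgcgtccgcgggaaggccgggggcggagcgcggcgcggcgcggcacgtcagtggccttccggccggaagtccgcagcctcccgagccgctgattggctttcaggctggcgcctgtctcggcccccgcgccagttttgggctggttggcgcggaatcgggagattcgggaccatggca
POLA2: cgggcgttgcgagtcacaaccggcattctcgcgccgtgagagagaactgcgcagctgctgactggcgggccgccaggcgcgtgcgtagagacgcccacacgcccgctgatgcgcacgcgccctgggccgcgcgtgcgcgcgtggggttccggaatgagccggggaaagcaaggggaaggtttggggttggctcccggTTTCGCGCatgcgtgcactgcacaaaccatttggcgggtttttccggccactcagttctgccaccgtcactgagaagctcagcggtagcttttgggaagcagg
PCNA: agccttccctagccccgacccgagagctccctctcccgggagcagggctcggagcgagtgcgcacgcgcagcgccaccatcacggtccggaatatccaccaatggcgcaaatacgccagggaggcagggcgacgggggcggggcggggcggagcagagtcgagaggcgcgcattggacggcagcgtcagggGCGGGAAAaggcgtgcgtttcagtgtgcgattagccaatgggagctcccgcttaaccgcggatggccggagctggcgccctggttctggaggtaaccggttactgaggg
MCM2: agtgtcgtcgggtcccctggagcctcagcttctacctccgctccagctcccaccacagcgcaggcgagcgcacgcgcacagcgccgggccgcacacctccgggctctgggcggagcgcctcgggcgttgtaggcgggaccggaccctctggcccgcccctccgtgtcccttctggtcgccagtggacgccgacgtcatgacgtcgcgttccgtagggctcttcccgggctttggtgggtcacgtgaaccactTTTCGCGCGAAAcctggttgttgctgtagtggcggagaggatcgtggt
RFC5: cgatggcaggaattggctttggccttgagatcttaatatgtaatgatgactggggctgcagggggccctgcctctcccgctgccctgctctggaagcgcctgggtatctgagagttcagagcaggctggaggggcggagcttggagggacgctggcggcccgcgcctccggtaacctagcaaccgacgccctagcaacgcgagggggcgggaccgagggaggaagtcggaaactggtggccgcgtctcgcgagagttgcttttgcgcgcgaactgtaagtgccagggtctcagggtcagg

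Replication genes lay close to mock with each drug, and more of them lay below it than above. Values are levels, that is, the log2 signal of a probe scaled so that the 75th percentile over an array's gene probes is 0, and differences are the level with a drug minus the level with mock. The median difference over the 39 genes was -0.27 with DAC, -0.22 with OR-2003 and -0.42 with OR-2100. The genes below mock numbered 26, 29 and 31 of 39, and between 22 and 34 in every comparison under the other scalings and probe choices tried. Values for the drugs are given in this order, DAC first, from here on. On this scale genes in general also lay below mock, and the median over the 15977 named genes that were well above background on all arrays was -0.18, -0.17 and -0.21. Relative to that median the replication genes lay at -0.09 with DAC, -0.05 with OR-2003 and -0.21 with OR-2100, and 22, 22 and 24 of the 39 were below it. In RNA from whole cultures, fewer cells in S phase and less RNA per cell cannot be told apart.

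The spread among replication genes was narrower than that of genes in general, by less when set against genes at positive levels. The SD over the 39 genes was 0.39 with DAC, 0.38 with OR-2003 and 0.40 with OR-2100, while it was 0.98, 0.99 and 1.00 over the well measured genes. Of the 39 genes, 36 were at -1 or more on all arrays. Over the 11308 named genes at that level the SD was 0.72, 0.72 and 0.73. With DAC 38 of the 39 genes (97.4%) were within 2-fold of mock, with OR-2003 38 and with OR-2100 37 (94.9%). The same held for 80.4%, 80.3% and 79% of the well measured genes, and for 85.6%, 85.3% and 84.1% of the 11308 genes. Within 1.5-fold of mock were 35 replication genes with DAC (89.7%), 33 with OR-2003 (84.6%) and 26 with OR-2100 (66.7%). The shares were 59.6%, 59.7% and 57.5% of the well measured genes, and 64.7%, 64.1% and 62.2% of the 11308 genes. With OR-2100 the replication genes thus lay near the genes at positive levels by the 1.5-fold share, but not by the SD or the 2-fold share. The long tail of strongly induced genes, from 2.75 upward on the log2 scale, held 1.72%, 1.80% and 1.79% of the well measured genes. It held no replication gene, and at so small a share that is no result about a set of 39. The highest value of any replication gene was that of ORC2, at 0.68 with OR-2003 and OR-2100.

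**Figure D1:**
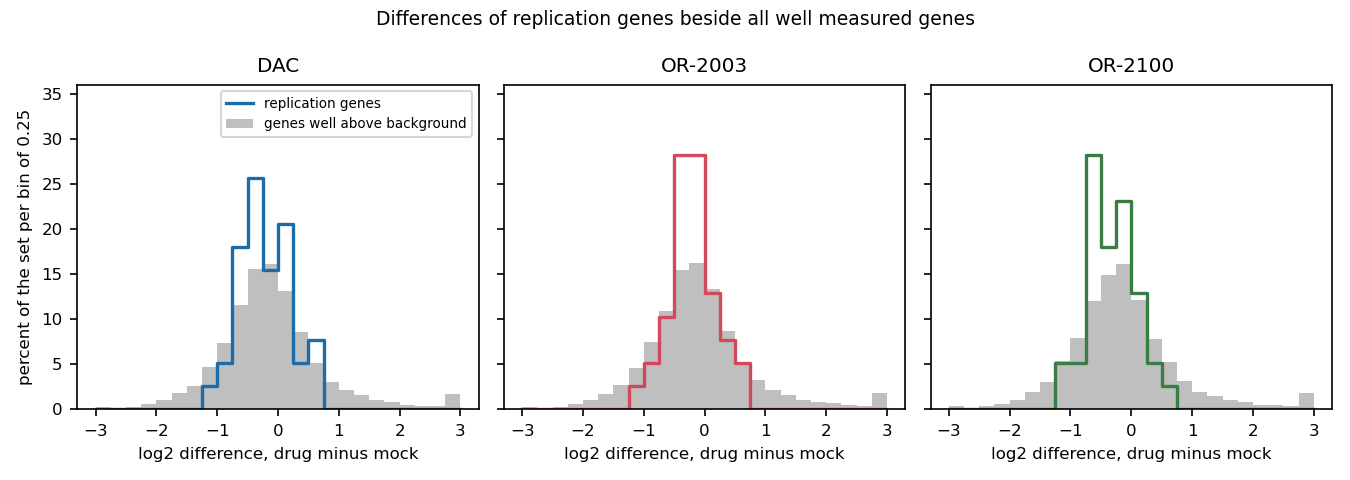
The share of genes (percent of the set) in each bin of 0.25 of the log2 difference, drug minus mock, for the 39 replication genes (line) and the 15977 named genes well above background on all arrays (grey bars), with genes beyond 3 placed in the end bins. The replication genes lie between -1.14 and 0.68, inside the bulk of the grey bars and short of both tails.

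Few of the genes passed a threshold of size. A gene was called lower when it was at least 2-fold below mock with a mock level of -1 or more, the level taken as positive expression in the study's methods, and called higher by the mirror rule on the drug array. POLA1 was the 1 gene called lower with DAC, where 5.96% of all named genes were called, and also with OR-2003, where 6.05% were. With OR-2100 POLA1 and RFC5 were called, against 6.82% of all named genes. No replication gene was called higher, where 5.77%, 5.89% and 5.81% of all named genes were called. Since dim genes cannot be called, the shares were also taken over the 12106 genes at -1 or more on the mock array, and were then 12.3%, 12.5% and 14.1% for lower. Over the genes at -1 or more on the drug array, 11.5%, 11.7% and 11.6% were called higher. The calls of POLA1 and RFC5 lie close to the threshold, and none was left when the 75th percentile was taken over bright probes or with quantile normalization. On the main scale the shares of replication genes called lower were 2.56%, 2.56% and 5.13%. These are under the shares of all named genes, but they rest on 1 or 2 genes, and more were called with OR-2003 under median scaling.

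At 1.5-fold more genes were called lower with OR-2100 than with the other drugs on the main scale, and this depended on the scaling. With DAC 3 genes were called lower (7.69%), POLA1, RFC5 and POLD2, against 13.5% of all named genes and 27.8% of those at -1 or more on the mock array. With OR-2003 MCM10 and POLD3 joined them to make 5 (12.8%), against 13.7% and 28.3%. With OR-2100 the number was 12 (30.8%), with PRIM1, MCM7, ORC3, CDT1, RFC4, RPA1 and MCM2 added, against 14.8% and 30.5%. ORC2 was the 1 gene called higher with each drug, where 8.83%, 8.94% and 8.83% of all named genes were called. The share with OR-2100 is that of the expressed background, and the counts of 3, 5 and 12 became 3, 3 and 3 when the 75th percentile was taken over bright probes. They were 3, 4 and 4 with quantile normalization, 11, 14 and 16 with median scaling, and 3, 9 and 7 with spike-in scaling.

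Spots printed in 10 copies on the array gave the noise of the measurement itself. Over the 269 to 281 such probes at -1 or more, the median SD between copies was 0.06 to 0.07 on the log2 scale, and the SD of a difference of 2 single spots was 0.08 to 0.09. It covers the spot and not the culture, the RNA or the labelling. ORC6, GINS2 and PRIM1 were read from 9 or 10 spots, and the SE of their differences over spots was between 0.019 and 0.033. The other genes were read from 1 spot, and a difference of 0.09 or less is then within 1 SD. Spot noise alone can also give larger differences.

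The origin recognition complex, the ORC1 to ORC6 subunits that mark origins, had no common direction. Its median difference was -0.02, 0.05 and -0.03 with the drugs. ORC2, a core subunit, was at a level of 0.56 with mock and at 1.15, 1.24 and 1.24 with the drugs. All drug arrays were above mock, by 0.59 to 0.68. A second ORC2 probe went the other way, with differences of -0.41, -0.21 and -0.25, so that the direction of ORC2 depends on the probe. ORC3 stood at 2.97 with mock and at 2.44, 2.48 and 2.34 with the drugs, and its second probe gave -0.47, -0.43 and -0.43. ORC3 was therefore below mock on every drug array by both probes. ORC5 differed by -0.28, -0.28 and -0.42, and its second probe by 0.20, -0.16 and -0.09, above mock with DAC. ORC1, the subunit whose amount changes through the cell cycle, differed by -0.17, 0.08 and -0.05 around a mock level of -1.09. ORC4 differed by 0.13, 0.03 and -0.02, while its other probe, at -0.52 with mock, gave -0.70, -0.96 and -0.77. ORC6 differed by 0.19, 0.15 and 0.02.

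The loading factors were both below mock, CDC6 with OR-2003 depending on the scaling (-0.39 to 0.04). CDT1, which brings MCM2-7 to the origin and is destroyed in S phase, was at 4.42 with mock and at 3.97, 3.87 and 3.79 with the drugs. The 3 drug arrays lay below mock by 0.45, 0.55 and 0.63 in size. CDC6, its ATPase partner, was at -1.38 with mock and at -1.80, -1.55 and -1.82 with the drugs. These are low levels, under the limit of positive expression on all arrays, and no call was possible.

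Of the MCM2-7 helicase subunits 5 were measured, and all but MCM4 lay below mock, MCM6 with DAC depending on the scaling (-0.30 to 0.02). Their median difference was -0.27 with DAC, -0.24 with OR-2003 and -0.47 with OR-2100. MCM7 was at 6.90 with mock and at 6.36, 6.41 and 6.25 with the drugs, and a second probe gave -0.47, -0.34 and -0.52. MCM2 was at 3.75 with mock and at 3.29, 3.42 and 3.17 with the drugs. MCM5 differed by -0.27, -0.21 and -0.37, and its second probe by -0.27, -0.43 and -0.33. MCM6 was at 4.60 with mock and at 4.42, 4.36 and 4.13 with the drugs, so that the OR-2100 array lay lowest. MCM4 went the other way, with 2.48 after mock and 2.83, 2.85 and 2.75 with the drugs. MCM4 and the other subunits, which form 1 ring, thus lay on opposite sides of mock. The median of the well measured genes was -0.18, -0.17 and -0.21, close to MCM5 and MCM6 with DAC and OR-2003. No subunit differed from mock by 2-fold.

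Among the factors that turn the loaded ring into a moving helicase, MCM10 stood apart. MCM10, which is needed for the start of unwinding, was at 0.61 with mock and at 0.03, -0.10 and -0.12 with the drugs. It was below mock by 0.58 to 0.73 in size on all drug arrays. CDC45 differed by -0.08, -0.03 and -0.18. Of the GINS subunits, GINS3 differed by -0.23, -0.22 and -0.42 and GINS4 by -0.24, -0.21 and -0.24. GINS1 differed by -0.06, -0.02 and -0.22, and GINS2, read from 9 or 10 spots, by 0.19, 0.19 and 0.02. GINS2 was the 1 subunit of the 4 above mock, and with median scaling it was at -0.03 with OR-2003 and -0.07 with OR-2100.

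The genes furthest from mock in opposite directions included a pair from 1 enzyme, DNA polymerase alpha-primase, which makes the RNA-DNA primers. POLA1, its catalytic polymerase subunit, was at 2.46 with mock and at 1.40, 1.45 and 1.33 with the drugs. It was 2.09-fold, 2.02-fold and 2.2-fold lower, and had the lowest value of all replication genes in each comparison. POLA2, the accessory subunit that binds POLA1, was at -1.01 with mock and at -0.51, -0.53 and -0.58 with the drugs. It was higher on all drug arrays, by 0.50, 0.48 and 0.43. PRIM1, the primase catalytic subunit, was at 2.48 with mock and at 1.92, 1.95 and 1.70 with the drugs, read from 9 or 10 spots. PRIM2, the large primase subunit, differed by -0.32, -0.31 and -0.51. Its other probes gave -0.40, -0.15 and -0.40 for one and 0.07, -0.31 and -0.19 for the other. Both POLA1 and POLA2 had 1 probe, so that a second reading was not available for either.

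**Figure D2:**
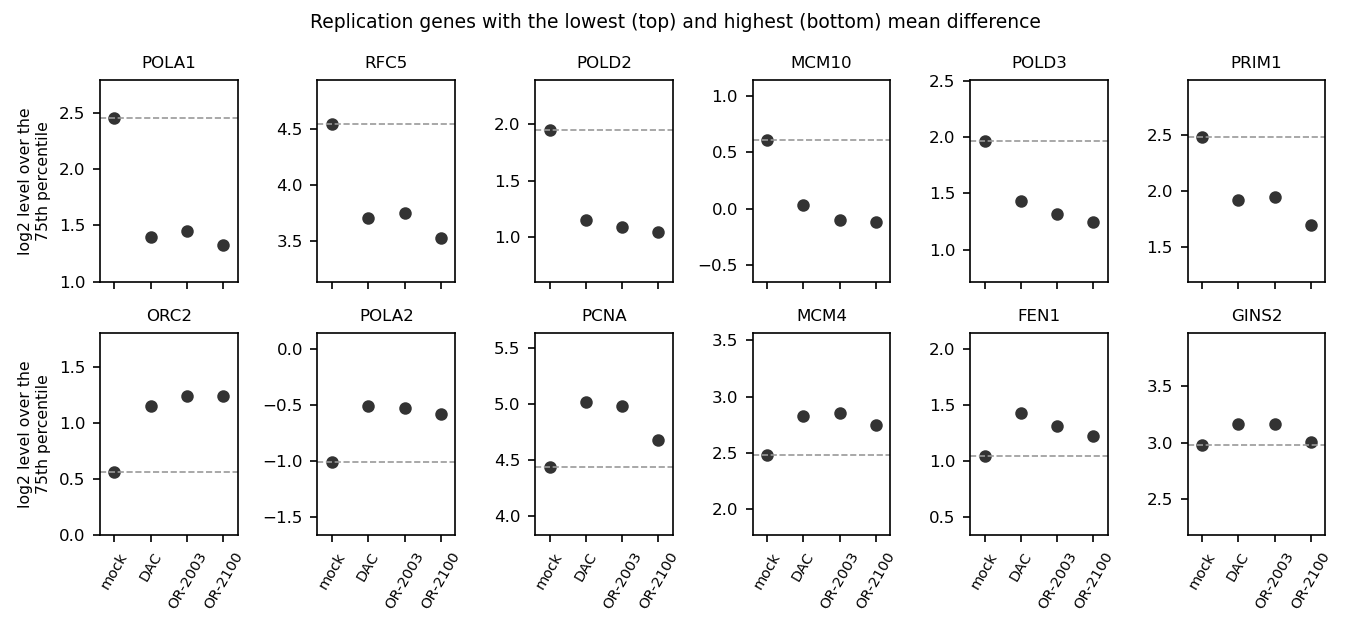
Levels (log2 signal over the 75th percentile of the array) on the mock, DAC, OR-2003 and OR-2100 arrays, 1 point an array, for the 6 replication genes with the lowest mean difference over the 3 drugs (top) and the 6 with the highest (bottom), with the mock level dashed and the same axis span in every panel. POLA1 stands at 2.46 with mock and between 1.33 and 1.45 with the drugs, and ORC2 stands at 0.56 with mock and 1.15 to 1.24 with the drugs.

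Polymerases delta and epsilon extend the lagging and the leading strand, and the subunits of polymerase delta had unlike differences. POLD2, a regulatory subunit of polymerase delta, was at 1.95 with mock and at 1.15, 1.09 and 1.04 with the drugs. It was 1.74-fold, 1.81-fold and 1.88-fold lower. POLD3, another regulatory subunit, was at 1.97 with mock and at 1.43, 1.32 and 1.25 with the drugs. POLD1, the catalytic subunit of the same enzyme, was at 3.71 with mock and at 3.72, 3.71 and 3.70 with the drugs, no more than 0.01 from mock in size. The catalytic subunit POLE of polymerase epsilon differed by 0.01, -0.10 and 0.10, and a second probe of it, at -2.69 with mock, by 0.41, 0.36 and 0.51. POLE2 differed by 0.05, 0.08 and -0.13.

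The sliding clamp and the small subunits of its loader lay on opposite sides of mock. PCNA, the ring that holds polymerases on DNA and also serves DNA repair, was at 4.44 with mock and at 5.02, 4.98 and 4.68 with the drugs. It was 1.49-fold, 1.45-fold and 1.18-fold higher, with the OR-2100 array nearest to mock. A second PCNA probe gave 0.56, 0.53 and 0.35, in the same order. RFC5, a small subunit of the loader, was at 4.54 with mock and at 3.71, 3.75 and 3.53 with the drugs, or 1.78-fold, 1.73-fold and 2.03-fold lower. RFC4 was at 3.96 with mock and at 3.40, 3.60 and 3.34 with the drugs. RFC2 differed by -0.37, -0.47 and -0.50. RFC3 differed by -0.37, -0.34 and -0.52, while a second probe gave 0.33, 0.19 and 0.04. RFC1, the large subunit, differed by 0.05, -0.03 and -0.17. The 4 small loader subunits were therefore below mock by their brightest probes while the clamp was above it.

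RPA coats single-stranded DNA. RPA1, the large subunit that holds most of the DNA contacts, was at 4.99 with mock and at 4.47, 4.57 and 4.40 with the drugs. A second RPA1 probe, close to the limit of positive expression at -0.94 with mock, gave -1.52, -1.50 and -1.86, and both probes were below mock with each drug. RPA3 was at 5.19 with mock and at 4.83, 4.82 and 4.63 with the drugs. RPA2, the subunit that checkpoint kinases phosphorylate, differed by 0.00, -0.03 and -0.06, and by 0.05, 0.07 and -0.03 with its second probe. These RPA2 values are within the spread between spots.

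The enzymes that finish Okazaki fragments differed in sign. FEN1, the flap nuclease, was at 1.05 with mock and at 1.43, 1.31 and 1.22 with the drugs. LIG1, the ligase that seals the nick, was at 3.79 with mock and at 3.33, 3.36 and 3.41 with the drugs. FEN1 was above and LIG1 below mock on every drug array.

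**Figure D3:**
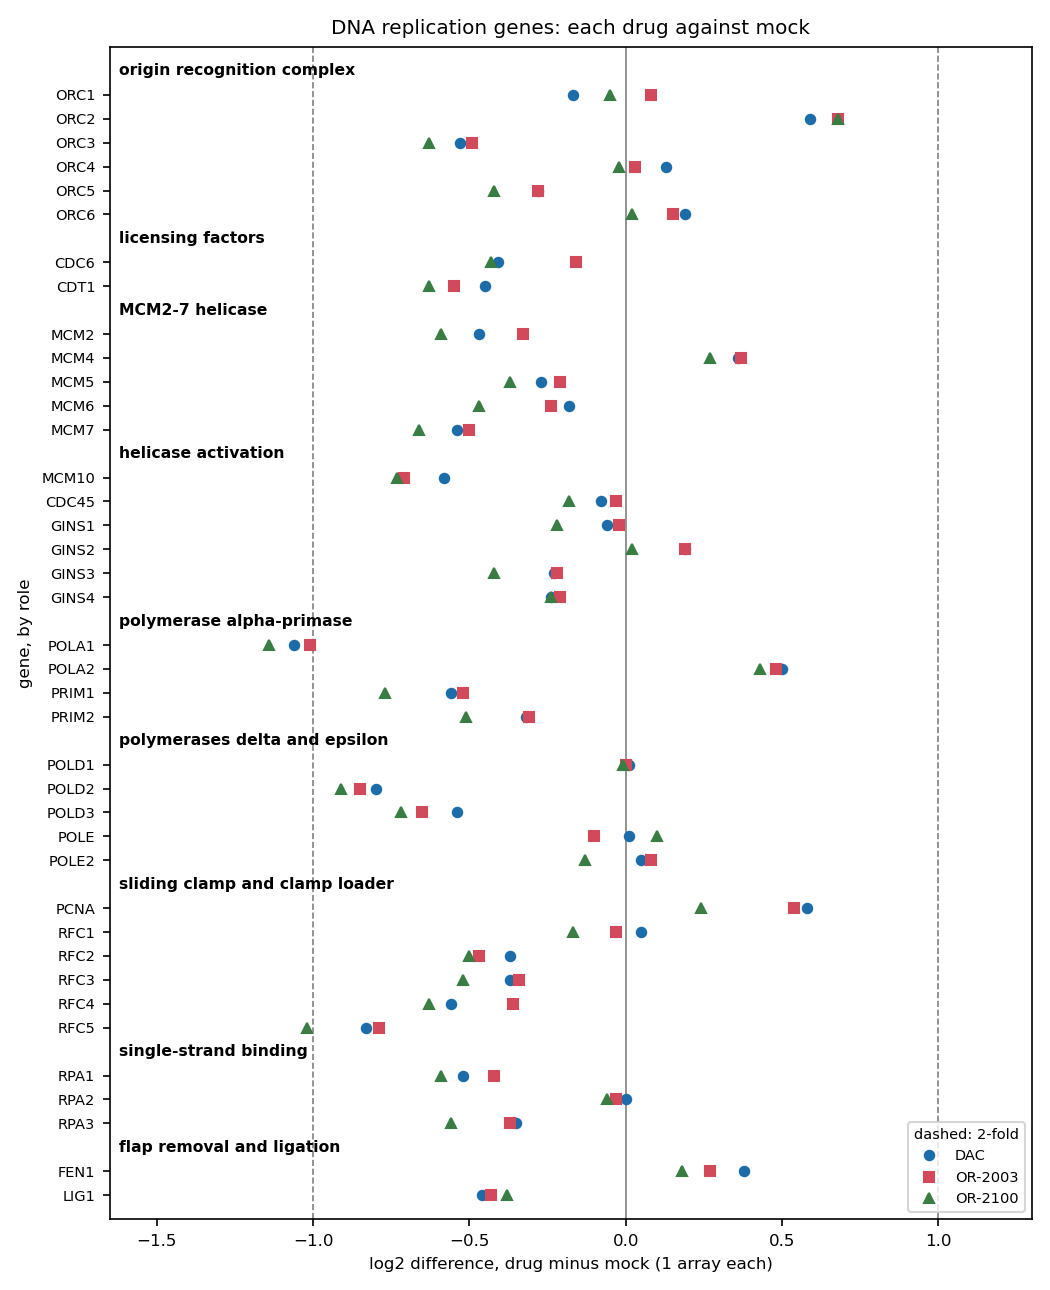
The log2 difference, drug minus mock, of each of the 39 measured replication genes by role, with 1 point a drug (DAC, OR-2003, OR-2100) and dashed lines at 2-fold. POLA1 lies beyond the 2-fold line with all 3 drugs and RFC5 with OR-2100, and all other points lie inside it.

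Second probes were compared for the 12 genes that had them, as a further reading on the same RNA besides the copied spots. For ORC3, ORC5, MCM7, RFC3, RPA1 and RPA2 the probes are named by different RefSeq transcripts, and a difference between transcripts was not tested. The mean difference over the drugs had the same sign for all probes of 8 genes, and the opposite sign for ORC2, ORC4, RFC3 and RPA2. The probes of 5 genes lay within 0.2 of each other. PCNA was above mock with each drug by both probes, and ORC3, MCM5, MCM7 and RPA1 were below mock by both. The remaining 27 genes, POLA1, POLA2, RFC5, POLD2 and MCM10 among them, had 1 probe.

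Genes with and without an E2F word in the promoter had medians close to each other. The 16 measured genes with a word had median differences of -0.30, -0.23 and -0.43 with the drugs. The 17 genes without one had -0.28, -0.28 and -0.42. Both groups held genes far from mock on either side, with mean differences over the drugs from -1.07 (POLA1) to 0.47 (POLA2) among genes with the word, whose sequences are printed above. Among genes without it the range ran from -0.88 (RFC5) to 0.65 (ORC2).

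Signal strength was also compared with the differences. The 17 genes with a mean level of 3 or more had median differences of -0.27, -0.24 and -0.42 with the drugs, against -0.15, -0.15 and -0.22 over the 3979 well measured genes of that level. The 15 genes between 1 and 3 had -0.28, -0.28 and -0.42, against -0.20, -0.20 and -0.24. The 7 genes under 1 had -0.17, -0.10 and -0.13, against -0.19, -0.16 and -0.19. The replication genes thus had lower medians than other genes of like signal in both brighter ranges, and not in the dimmest.

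The drugs were given at the same dose for the same time, and their arrays were compared with each other in 3 pairs. OR-2003 minus DAC had a median of 0.01 over the 39 genes, from -0.13 (MCM10) to 0.25 (CDC6), and 17 genes were below 0. OR-2100 minus DAC had a median of -0.13, from -0.34 (PCNA) to 0.12 (ORC1), and 35 genes (89.7%) were below 0, against 61.9% of the well measured genes, whose median was -0.04. OR-2100 minus OR-2003 had a median of -0.14, from -0.30 (PCNA) to 0.20 (POLE), and 36 genes were below 0 (92.3%, against 61.5% of genes), a count that was 21 with median scaling and 12 with scaling by spike-in probes. Of the genes at -1 or more on all arrays, 66.8% were below 0 for OR-2100 minus DAC and 64.2% for OR-2100 minus OR-2003. Their median was -0.05 in both pairs. Relative to the median of the well measured genes, which no constant shift of an array can change, 32 of the 39 genes were lower with OR-2100 than with DAC and 31 were lower than with OR-2003. The median distance was -0.09 and -0.10. None of the 39 genes differed 1.5-fold between any pair of drugs, as did 1.06%, 1.46% and 1.99% of the well measured genes in the same order. With 1 array a drug, no interval can be put on these differences, and a culture or labelling effect on the OR-2100 array was not tested.

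PCNA had the largest gap between OR-2100 and either other drug when each gene was read by its brightest probe. It was lower with OR-2100 than with DAC by 0.34 and than with OR-2003 by 0.30, and its second probe gave -0.21 and -0.18. The second probe of RPA1 gave -0.34 and -0.36, at least as large. Both PCNA probes were beyond the spread between single spots. The PCNA values still lie within the central 95% of well measured genes, which ran from -0.42 to 0.39 for OR-2100 minus DAC.

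Partner genes of replication were taken from 5 lists written from general knowledge, with 88 of 89 genes measured. Their medians lie close to mock, and those of each list except chromatin assembly changed sign with the scaling in at least 1 comparison. Regulators of licensing and firing, such as the kinase CDC7 with DBF4 and the cyclins of CDK2, had median differences of 0.10, 0.20 and 0.07 with the drugs. Of the 18, none was 2-fold lower by the rule above, and 1, RIF1, was 2-fold higher with OR-2100, where 6.82% of all named genes were called lower and 5.81% higher. RIF1, which sets the timing of origin firing, was at 0.61 with mock and at 1.45, 1.40 and 1.64 with the drugs. CCNE1, the cyclin E that drives CDK2 into S phase, was at 4.39 with mock and at 5.30, 5.24 and 5.18 with the drugs. MCM9, a helicase of DNA repair, was at -1.55 with mock and at -2.83, -2.94 and -3.05 with the drugs, all under the level of positive expression.

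Fork and lagging strand partners numbered 24 and had median differences of -0.08, -0.11 and -0.21. TOP1, the topoisomerase that removes twist ahead of the fork, was at 3.17 with mock and at 2.28, 2.05 and 2.15 with the drugs. It was the 1 gene of the 24 called 2-fold lower, with OR-2003 and OR-2100, where 6.05% and 6.82% of all named genes were called. PCLAF, a PCNA binding protein, was at 4.98 with mock and lower than that by 0.67, 0.72 and 0.98 in size with the drugs. ATRIP, the partner of the checkpoint kinase ATR, was at -1.26 with mock and at -0.17, -0.27 and -0.31 with the drugs. It was the 1 gene of the 24 called 2-fold higher, with DAC, where 5.77% of all named genes were called. These genes of the fork therefore lay on both sides of mock.

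The 12 genes of chromatin assembly behind the fork had median differences of -0.30, -0.22 and -0.43. With the mean of a gene's probes these were -0.14, -0.14 and -0.27, against -0.17, -0.16 and -0.21 over the well measured genes. Of the 12 genes, 11 lay below mock in each comparison, or 6 to 11 over the scalings and probe choices tried. On the main scale 61.6%, 61% and 63.5% of the well measured genes also lay below mock. NASP, a histone chaperone, differed by -0.69, -0.67 and -0.88, RBBP4, a subunit of the assembly factor CAF-1, by -0.68, -0.61 and -0.76, and MMS22L, a partner of TONSL, by -0.64, -0.67 and -0.73. RBBP4 had 4 probes and MMS22L 2, and the values are those of the brightest. None of the 12 was called 2-fold lower or higher, where 5.77% to 6.82% of all named genes were called in either direction. The 10 genes of dNTP supply had medians of -0.20, -0.13 and -0.43. RRM1, the large subunit of ribonucleotide reductase, was at 4.40 with mock and at 3.92, 4.03 and 3.61 with the drugs, while CTPS1, which makes CTP, was at 3.65 with mock and at 4.42, 4.49 and 4.39 with them. DTYMK, the thymidylate kinase, differed by -0.48, -0.47 and -0.65.

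The list of E2F factors and inhibitors of the cell cycle had median differences of -0.05, -0.09 and -0.16 over 24 genes, and held the largest differences of the partner genes at positive levels. CDKN1A, which encodes the CDK inhibitor p21, a p53 target that also binds PCNA, was at 0.17 with mock and at 1.43, 1.36 and 1.39 with the drugs. CDKN2D, which encodes the CDK4 and CDK6 inhibitor p19, was at 4.53 with mock and at 5.83, 5.81 and 5.69 with the drugs. Both were called 2-fold higher with each drug. They were the 2 of the 88 partner genes (2.27%) called higher with all 3 drugs, against 5.27% of all named genes, so that the share is no larger than that of genes in general. The CDK inhibitors of the list had no common direction. CDKN1C differed by 0.71, 0.76 and 0.75, but CDKN2A by -0.88, -0.90 and -0.82 and CDKN1B by -0.67, -0.73 and -0.80. CDKN2C differed by -0.36, -0.54 and -0.71, and CDKN2B by -0.02, -0.03 and -0.24. E2F8, a repressor among the E2F factors, was at -0.04 with mock and at -1.08, -1.02 and -1.26 with the drugs. It was the 1 gene of the 24 called 2-fold lower, with DAC and OR-2100, where 5.96% and 6.82% of all named genes were called.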

How the data were processed

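The authors deposited scanner output of 4 one-colour Agilent arrays, in which Feature Extraction 12.1.0.3 had subtracted background from the intensity of every spot but had not normalized arrays to each other. Their series table repeats these intensities. Probes were named from accessions through a RefSeq table of another assembly than that of the array design, so that no gene coordinates are given beyond those of the printed promoters. Control spots and spots marked as non-uniform or as outliers (52 to 98 of 60901 gene spots an array) were left out. Spots of a probe were averaged as log2 intensity, and each array was scaled so that its 75th percentile over gene probes was 0. No probe was saturated. A probe counted as well above background where the scanner software marked over 0.5 of its spots so.

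The members and the lists were chosen with earlier results of these data known. The rule for naming covered all replication genes, and of each partner list the genes called 2-fold with all 3 drugs and the 3 with the largest mean difference. Outside this rule, the other CDK inhibitors were named to show both directions. With 1 array per condition no test was run. Alternatives were the series table, normexp with an offset of 50 (limma 3.58.1, R 4.3.3), on median signals because mean signals were not used here, other scalings, the mean or median of a gene's probes, marked spots kept and no level threshold. Scaling by 8 spike-in probes was added after the data had been seen. Python 3.11.15, numpy 2.4.6 and pandas 2.3.3 were used. One marker of another cell type was left out and is not reported here.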

Additional observations from a re-analysis of the deposited data

How the results depend on the processing

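No paired analysis was possible because every condition is 1 array, and for the same reason no array could be left out. Medians of the 39 replication genes stayed below mock under all alternatives, and no single gene called at 1.5-fold changed sign. The series table, marked spots and the absence of a level threshold left every median and count as it was or within 1.5 times. With the 75th percentile over bright probes the medians were -0.08, -0.02 and -0.20 in the order DAC, OR-2003, OR-2100, and 0 genes were 2-fold lower with each drug, 3 were 1.5-fold lower with OR-2003 and 3 with OR-2100, and 2 were 1.5-fold higher with OR-2003. With quantile normalization the medians were -0.11, -0.11 and -0.22, 0 genes were 2-fold lower with each drug, 4 were 1.5-fold lower with OR-2100, and 2 were 1.5-fold higher with DAC and 2 with OR-2003. With median scaling the medians were -0.39 with DAC and -0.44 with OR-2003, 11 genes were 1.5-fold lower with DAC and 14 with OR-2003, 3 were 2-fold lower with OR-2003, and 0 were 1.5-fold higher with DAC or OR-2003. With spike-in scaling, chosen after seeing the data, the median with OR-2003 was -0.34, 9 genes were 1.5-fold lower with OR-2003 and 7 with OR-2100, 1 was 2-fold lower with OR-2100, and 0 were 1.5-fold higher with OR-2003. With normexp 3 genes were 1.5-fold and 0 were 2-fold lower with OR-2003. With the mean or the median of a gene's probes 2 genes were 2-fold lower with DAC, and 0 were 1.5-fold higher with DAC, OR-2003 or OR-2100. Relative to the well measured genes the medians lay between -0.21 and -0.01 under all settings. The cause of these shifts was not tested beyond the scaling constants themselves. Over all 10 settings POLA1 ranged from -1.24 to -0.81 over the 3 drugs, RFC5 from -1.11 to -0.59, POLD2 from -1.08 to -0.60, PCNA from 0.15 to 0.78 and POLA2 from 0.20 to 0.70. CDC45, GINS1, GINS2, ORC1, ORC4, ORC6, POLD1, POLE, POLE2, RFC1, RPA2, CDC6 and MCM6 changed sign with a setting or a drug. Without replicates, a difference of single spots under 0.09 is within 1 SD of the spot noise, which can also give larger differences. The number of arrays limits the precision of the rest.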
